A study of Homo sapiens with 11 samples.

Results

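Estrogen receptor (ER) binding was mapped in the cell line Ishikawa, which derives from a human endometrial cancer, after 1 h with 100 nM dexamethasone and 10 nM estradiol together (the combination) and after 1 h with 10 nM estradiol alone. The sites described here are all ER peaks of these 2 libraries, 2382 with the combination and 3560 with estradiol, which are 5942 of the 90458 peaks in the 8 peak lists of the series analysed here. A peak of one list was matched to a peak of the other when they shared at least 1 bp on hg19. A site present in both lists is called kept, an estradiol site with no match is called missing, and a combination site with no match is called new. Both libraries were made with the ER antibody HC-20, and all cells had spent at least 4 days in phenol red-free medium with charcoal/dextran-treated serum, which is low in steroid hormones. Glucocorticoid receptor (GR) lists from cells given the combination or 100 nM dexamethasone alone for 1 h, made with the GR antibody E-20, were used beside them. So were lists of histone H3 acetylated at lysine 27 (H3K27ac) after 8 h with the combination, estradiol, dexamethasone or the vehicle DMSO. Each condition had 1 library and 1 cell line, so no test between conditions was possible. The 95% intervals given are exact Clopper-Pearson intervals over peaks and cover counting error only, since neighbouring peaks are not independent.

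ER and GR are ligand-activated transcription factors of the nuclear receptor family. Estradiol-bound ER binds estrogen response elements or reaches DNA through other factors, and it drives proliferation of the endometrial epithelium. Dexamethasone is a synthetic ligand of GR, which binds glucocorticoid response elements. H3K27ac marks active promoters and enhancers.

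The ER libraries held 7625049 usable tags with the combination and 8508828 with estradiol, and both were scaled by the peak caller to a control of 3479280 usable tags. The pileup, which is the scaled fragment coverage at the summit, had a median of 27.4 in the combination list and 24.1 in the estradiol list. In unscaled fragments these medians were 60 and 59. The caller estimated a fragment length of 121 bp for the combination library and 90 bp for the estradiol library, and the narrowest peak of each list had exactly that width. With 1 tag allowed per position and strand, coverage at a summit cannot exceed 242 fragments with the combination or 180 with estradiol. The strongest sites reached 240 and 180 fragments, and 29 combination sites and 133 estradiol sites lay within 10% of the ceiling. Pileup therefore ranks the strongest sites coarsely, and it was read within each list and never as a ratio between lists.

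Most of the combination list lay on estradiol sites, while the estradiol list held many sites that the combination list lacked. New sites numbered 192 of 2382 combination sites (8.06%, 6.998 to 9.227), and missing sites numbered 1360 of 3560 estradiol sites (38.2%, 36.6 to 39.8). Because matching was close to 1-to-1, this asymmetry follows from the list lengths of 2382 and 3560 sites. With both lists cut to equal length, the new and missing shares must be nearly equal. There, 19.9% (by −log10 q) or 22.6% (by pileup) of combination sites were new, and 80.3% or 77.6% of estradiol sites were kept. The shares for the whole lists are the background for all counts of new and missing sites given for subsets. Matching was close to 1-to-1: 14 combination sites overlapped 2 estradiol sites, 4 estradiol sites overlapped 2 combination sites, and 2186 pairs remained when each site was used once. The overlap rule had few borderline cases, with a smallest overlap of 19 bp among 2204 overlapping pairs, and gaps as short as 3 bp for a missing site and 35 bp for a new one. A site of the other list lay within 1 kb of 20 new sites and 131 missing sites. The median distance to the other list was 54.5 kb for new sites and 96.5 kb for missing sites.

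New and missing sites were both weak sites of their own lists. In the combination list cut into 10 classes of equal size by pileup, new sites made up 23.8% (18.6 to 29.8) of the weakest class, 4.62% (2.33 to 8.12) of the fifth class and 0 of 239 sites in the strongest class (upper bound 1.53%). In the estradiol list, the kept share climbed through every class: 19.7% (15.7 to 24.2) in the weakest, 52.0% (46.6 to 57.3) in the fifth, 91.9% (88.5 to 94.5) in the eighth and 356 of 356 in the strongest (lower bound 98.97%). New sites had a median pileup of 18.71, against 28.75 for kept sites of the same list. Missing sites had a median pileup of 17.58, against 31.49 for kept sites of the estradiol list. The authors' −log10 p, for which the calling threshold was 10, lay under 20 for 93 of 192 new sites (48.4%) and for 678 of 1360 missing sites (49.9%). It did so for 15.6% of kept combination sites and 8.45% of kept estradiol sites.

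**Figure D1:**
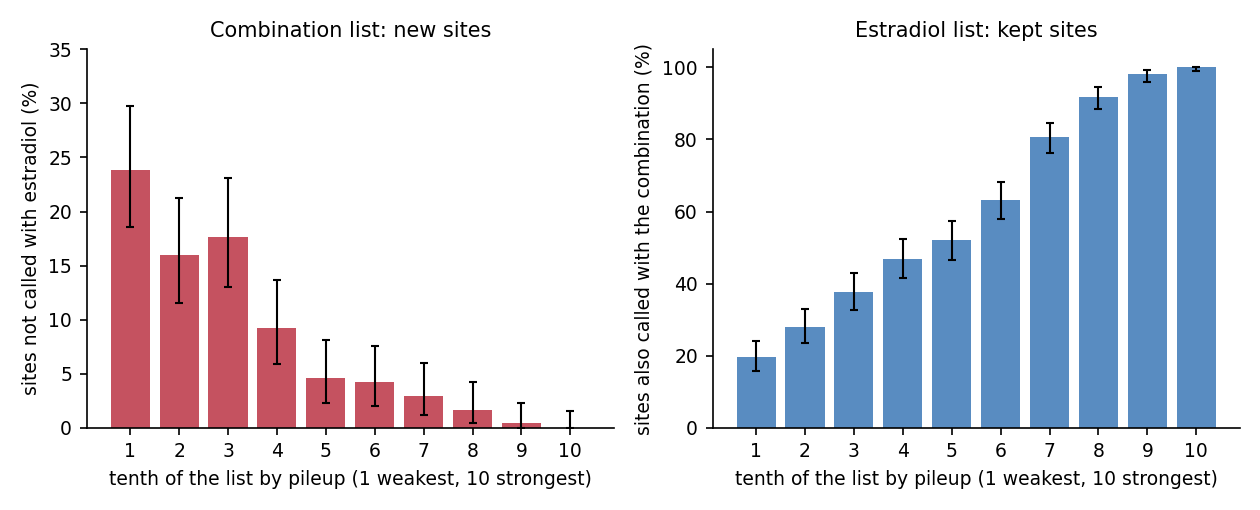
Share of sites found in only 1 list or in both, by strength. The left panel gives the percentage of combination ER sites that were new and the right panel the percentage of estradiol ER sites that were kept, in 10 classes of equal size by pileup within each list, with exact 95% intervals over peaks. New sites fall to 0 of 239 in the strongest combination class, and kept sites reach 356 of 356 in the strongest estradiol class.

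A GR site stood at most of the stronger new sites. Of the 22 new sites in the stronger 50% of the combination list, 21 overlapped a combination GR site. Seen the other way, 21 of the 582 ER sites of that stronger 50% with a combination GR site were new (3.61%, 2.25 to 5.46), and 1 of the 599 without one was new (0.167%, 0.00423 to 0.927). GR of cells given dexamethasone alone, a treatment of neither ER library, showed the same order. In the stronger 50%, 15 of 218 ER sites with such a GR site were new (6.88%, 3.90 to 11.1), against 7 of 963 without one (0.727%, 0.293 to 1.49). In the weaker 50% the shares were 45.5% (37.2 to 54.0) of 145 sites with a dexamethasone GR site and 9.85% (8.12 to 11.8) of 1056 sites without one. Among the 192 new sites, 75 (39.1%) overlapped both GR lists and 85 (44.3%) overlapped neither. Of the 2190 kept sites of the combination list, 229 (10.5%) overlapped both and 1479 (67.5%) neither.

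The new site with the highest pileup was chr10:121417909-121418139, with a pileup of 52.93 (116 fragments) and a fold enrichment of 18.0 over the local control, which ranked 381 of 2382. It overlapped both GR lists and no H3K27ac list, and the nearest estradiol ER site was 9021 bp away. The second was chr12:66185296-66185421, with a pileup of 46.54 but a fold enrichment of 2.97, no GR site in either list and H3K27ac in all 4 lists. It is the only new site in the stronger 50% with no combination GR site, and it had the lowest fold enrichment of the 5. The third, chr1:55443635-55443888, had a pileup of 44.72 and a fold enrichment of 9.14, both GR lists present, and H3K27ac in each list except vehicle. The fourth, chr4:77484633-77484974, had a pileup of 42.89, the highest fold enrichment of the 5 (34.0), both GR lists and all 4 H3K27ac lists. An estradiol ER site lay 957 bp away from it. The fifth, chr9:132958021-132958214, had a pileup of 39.70 and a fold enrichment of 13.6, and it overlapped GR with the combination but not with dexamethasone. Of these 5 sites, 4 carried a combination GR site and 3 a dexamethasone GR site.

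The missing sites were the reverse, with few GR sites. A combination GR site overlapped 43 of 1360 missing sites (3.16%, 2.30 to 4.24), against 660 of 2200 kept sites of the estradiol list (30.0%, 28.1 to 32.0). The order was the same within classes of strength: in the weakest of 3 classes by pileup the shares were 2.75% (1.75 to 4.09) of 837 missing sites and 14.2% (10.8 to 18.3) of 359 kept sites, and in the middle class 3.62% (2.13 to 5.74) of 469 and 19.6% (16.7 to 22.7) of 699. Seen from the estradiol list, 93.9% (91.8 to 95.5) of the 703 ER sites that overlapped combination GR were kept, against 53.9% (52.1 to 55.7) of the 2857 that did not. With dexamethasone GR the kept shares were 78.7% (74.1 to 82.8) of 357 sites and 59.9% (58.2 to 61.6) of 3203 sites. In the weaker 50% of the estradiol list, which held 1123 of the 1360 missing sites, 56.8% (47.6 to 65.6) of sites with dexamethasone GR were kept, against 35.2% (32.9 to 37.5) without it. In the stronger 50% the kept shares with and without dexamethasone GR were 90.5% (86.0 to 94.0) and 86.2% (84.3 to 87.8), with overlapping intervals.

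The missing sites with the highest pileup were chr19:8204520-8204687 and chr3:50204843-50204986, each with a pileup of 49.07 (120 fragments) and a rank of 456 of 3560. Their fold enrichments were 10.0 and 16.7, neither overlapped GR in either list, and the nearest combination ER sites were 235336 bp and 97622 bp away. The third was chr14:77423909-77424193, with a pileup of 46.21, a fold enrichment of 6.74 and a combination ER site 802 bp away. The fourth, chr6:11650601-11650788 (pileup 43.34, fold enrichment 8.87), overlapped combination GR, although no combination ER peak was called there. The fifth, chr10:4750548-4750697 (pileup 42.93), had the highest fold enrichment of the 5, at 25.5, and overlapped no GR or H3K27ac list. Of these 5 sites, 1 carried a combination GR site and 0 a dexamethasone GR site. Only 17 missing sites lay in the strongest 25% of the estradiol list.

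The kept sites with the highest combination pileup were at or near the ceiling in both libraries. Site chr2:70843373-70843670 had 240 fragments with the combination and its match had 180 with estradiol, with fold enrichments of 4.42 and 4.39. Site chr1:15303786-15304168 had 239 and 180 fragments, with fold enrichments of 5.24 and 4.14. Site chr2:100253158-100253450 had 238 and 180 fragments, with fold enrichments of 3.91 and 2.98. Their fold enrichments were low for such coverage, so the local background was high at these 3 sites. Site chr3:194814904-194815343 (238 and 180 fragments) had higher fold enrichments of 13.7 with the combination and 14.9 with estradiol. Site chr11:130523678-130524082 had 237 and 178 fragments, with fold enrichments of 9.92 and 9.22. All 5 overlapped combination GR and 2 overlapped dexamethasone GR. In the strongest of 3 pileup classes of the combination list, combination GR overlapped 58.0% of 796 kept sites and dexamethasone GR 18.1%.

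The order of the matched sites by strength was largely shared by both libraries. Ranks were taken by pileup among the 2186 matched sites in each library, as percentiles where a higher value is stronger, and the shift is the combination percentile minus the estradiol percentile. Spearman's rho across these sites was 0.886, given as a description, since sites are not replicates and both libraries share the cell line, the antibody and a control of the same depth. Of the 100 strongest matched sites with the combination, 81 were among the 100 strongest with estradiol. The shift was within 10 points for 1379 sites (63.1%), with a median of −0.70 points and quartiles of −7.41 and 6.30. The order held best among strong sites: rho was 0.851 in the strongest of 3 classes by estradiol rank, 0.452 in the middle class and 0.453 in the weakest, although narrower ranges of strength themselves lower rho. The combination rank was higher by more than 25 points at 97 sites (4.44%) and lower by more than 25 points at 68 sites (3.11%), which are the background shares for the counts of shifted sites below. The balance depended on the ranking: it was 9.84% higher and 10.3% lower by fold enrichment, 8.97% and 8.55% by −log10 q, and 1.56% and 16.6% with percentiles within each whole list. Whole-list percentiles also rank unmatched sites, which were mostly weak and more numerous in the estradiol list. Kept sites had a median percentile of 67.7 in the whole estradiol list and 53.1 in the whole combination list. That setting by itself tilts the balance towards losses.

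**Figure D2:**
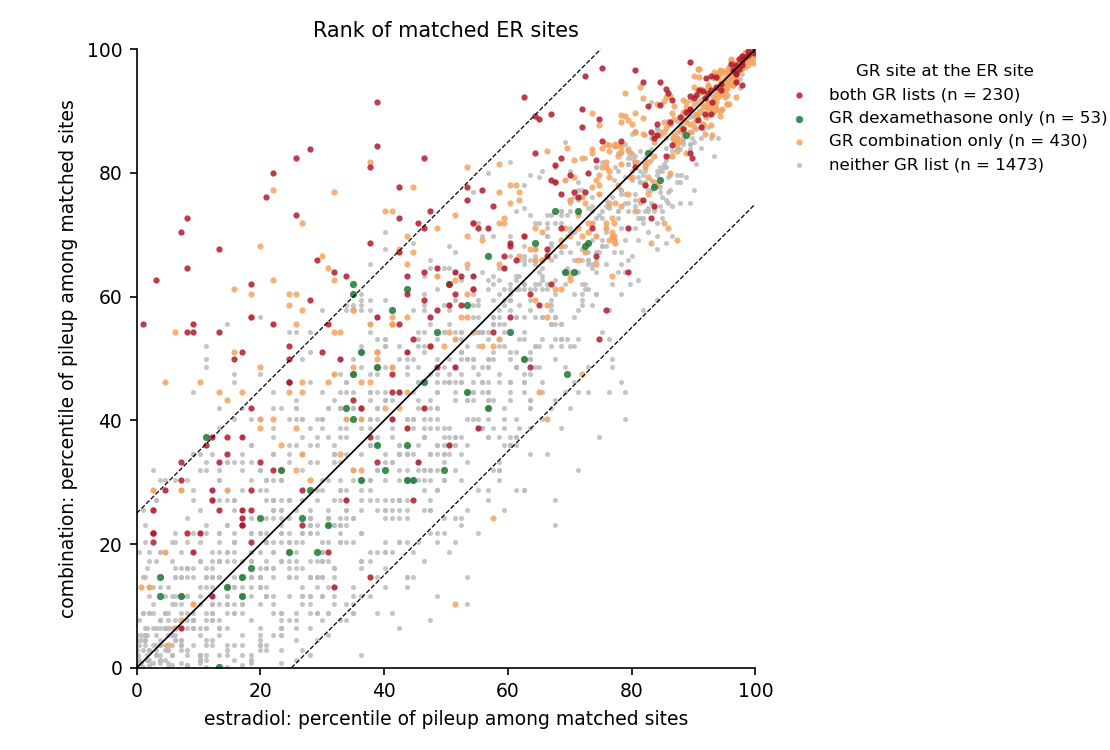
Rank of each of the 2186 matched ER sites with the combination (vertical axis) and with estradiol (horizontal axis), as percentiles of pileup among matched sites. The solid line marks equal rank and the dashed lines a shift of 25 points, colours give the GR lists that overlap the site, and most points above the upper dashed line carry a GR site (70 of 97 a combination GR site).

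Matched ER sites with a combination GR site stood higher in rank with the combination, with a median shift of 2.18 points over 660 sites, and those without one stood lower, with a median of −2.90 points over 1526 sites. A combination GR site overlapped 70 of the 97 sites that gained more than 25 points (72.2%, 62.1 to 80.8) and 3 of the 68 that lost more than 25 points (4.41%, 0.919 to 12.4), against 30.2% of all matched sites. A dexamethasone GR site overlapped 41 of the 97 (42.3%, 32.3 to 52.7) and 0 of the 68 (upper bound 5.28%), against 12.9% of all matched sites. The 283 matched sites with a dexamethasone GR site had a median shift of 6.27 points (quartiles −0.949 and 17.7), and 202 of them (71.4%) ranked higher with the combination. The 1903 sites without one had a median shift of −1.17 points (quartiles −8.34 and 4.76), and 811 of them (42.6%) ranked higher.

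Of the 4 classes by GR list, sites on both lists had the highest median shift. The 230 sites on both GR lists had a median shift of 7.91 points, and 38 of them (16.5%) gained more than 25. The 430 sites with GR only in the combination list had a median shift of 1.20 points, with 32 (7.44%) gaining more than 25. The 53 sites with GR only in the dexamethasone list had a median of −2.33 points, with 3 (5.66%) gaining more than 25. The 1473 sites on neither list had a median of −3.04 points, and 24 (1.63%) gained more than 25 while 65 (4.41%) lost more than 25. The labels do not say whether the ER and GR libraries of the combination came from the same chromatin.

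The GR difference was largest at sites that were weak with estradiol alone. In the weakest of the 3 classes by estradiol rank, the median shift was 23.0 points for the 65 sites on both GR lists and 22.1 points for the 54 on the combination list alone. It was −1.88 points for the 16 on the dexamethasone list alone and 0.297 points for the 595 on neither. In the middle class the medians were 8.69, 10.0, 4.78 and −6.29 points in the same order. In the strongest class they were 1.05, −0.0686, −4.28 and −4.37 points. There the ceiling on pileup and the top of the scale leave little room to rise. A weak site can only be in this set if it was called with the combination, and all matched sites of the weakest class together had a median shift of 2.48 points.

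**Figure D3:**
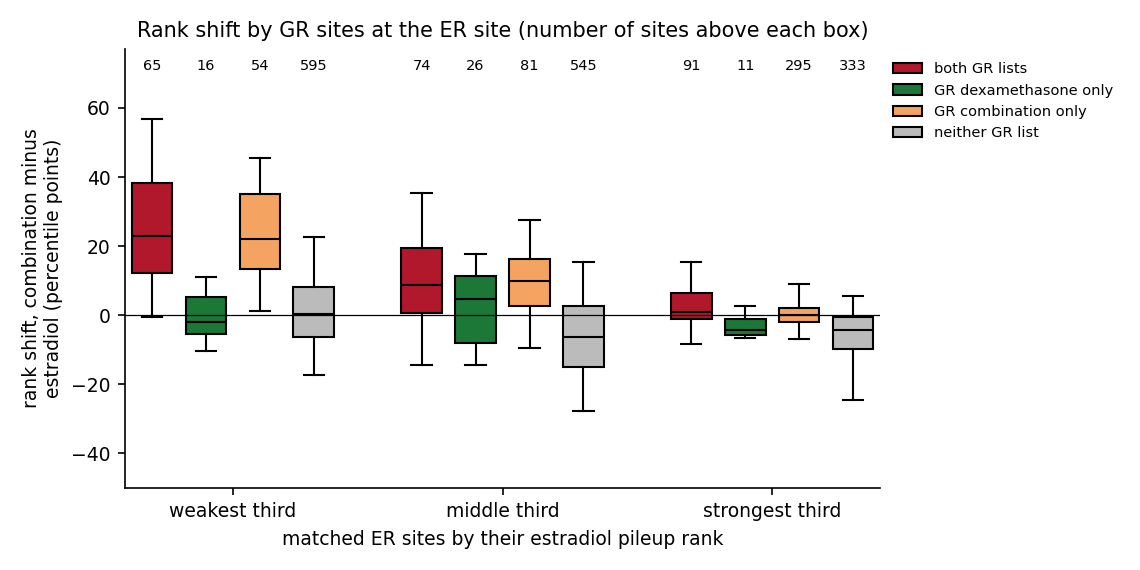
Rank shift of matched ER sites (combination minus estradiol, in percentile points) by the GR lists that overlap the site, in 3 classes of equal size by estradiol rank. Boxes give the quartiles with the median as a line, whiskers run from the 5th to the 95th percentile, and the sites with combination GR stand highest in the weakest class, with medians of 23.0 and 22.1 points.

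The 5 largest gains in rank all lay on GR sites of both lists. Site chr10:45459630-45459860 stood at percentile 72.6 with the combination (92 fragments, fold enrichment 29.0) and 8.14 with estradiol (40 fragments, 12.8), a gain of 64.5 points. Site chr9:80655520-80655764 stood at 70.4 with the combination (89 fragments, fold enrichment 20.8) and 7.14 with estradiol (39 fragments, 8.47). Site chr9:3982043-3982259 stood at 62.8 with the combination (76 fragments) and 3.16 with estradiol (33 fragments). These 3 sites were among the weakest 10% of matched sites with estradiol and stood above the middle with the combination. Site chr15:83588118-83588524 stood at 80.01 with the combination (109 fragments) and 22.03 with estradiol (52 fragments), and its peak was 407 bp wide with the combination and 115 bp with estradiol. It overlapped H3K27ac of the combination and of no other list. Site chr9:132318810-132319100 stood at 82.4 with the combination (116 fragments) and 25.7 with estradiol (55 fragments), with H3K27ac in all 4 lists.

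Among the 5 largest losses in rank, 1 site overlapped a GR site. Of all 2186 matched sites, 67.4% overlapped neither GR list, and 5 sites are too few to be set apart from that share. Site chr14:77422865-77423107 stood at percentile 23.0 with the combination (44 fragments, fold enrichment 10.5) and 67.7 with estradiol (99 fragments, 26.9), a shift of −44.6 points. It lies 802 bp from the third strongest missing site named above, so of 2 neighbouring estradiol sites 1 was lower in rank and 1 was not called with the combination. Site chr14:103576192-103576312 stood at 10.2 with the combination (35 fragments) and 53.4 with estradiol (81 fragments). Site chr14:74259262-74259414 stood at 10.2 with the combination (35 fragments) and 51.4 with estradiol (79 fragments), and it was the only one of the 5 with a GR site (combination list). Site chr22:17602429-17602578 stood at 27.2 with the combination (47 fragments) and 67.7 with estradiol (99 fragments). Site chr2:161099481-161099601 stood at 7.66 with the combination (33 fragments) and 47.4 with estradiol (75 fragments), with H3K27ac in all 4 lists. Dexamethasone GR overlapped 0 of these 5 sites, against 12.9% of all matched sites, which 5 sites cannot be told apart from.

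H3K27ac after 8 h differed with the class of site, though the classes also differed in strength. The combination H3K27ac list overlapped 40.1% (33.1 to 47.4) of new sites and 51.6% (49.5 to 53.8) of kept sites of the combination list. The estradiol H3K27ac list overlapped 29.2% (22.8 to 36.1) of new sites and 55.6% (53.5 to 57.7) of those kept sites. In the weakest of 3 pileup classes of the combination list, combination H3K27ac was at 33.8% (26.1 to 42.2) of 142 new sites and 32.7% (29.1 to 36.5) of 645 kept sites, with overlapping intervals. Estradiol H3K27ac was there at 26.1% (19.1 to 34.1) of new and 35.3% (31.7 to 39.2) of kept sites. In the middle class it was at 31.8% (18.6 to 47.6) of 44 new and 50.6% (47.0 to 54.2) of 749 kept sites. These intervals overlap in both classes. The strongest class held only 6 new sites, 83.3% of them with estradiol H3K27ac, against 76.6% of kept sites. Of the 136 new sites without estradiol H3K27ac, 24 (17.6%, 11.6 to 25.1) had combination H3K27ac, against 83 of 973 kept sites (8.53%, 6.85 to 10.5). Missing sites overlapped combination H3K27ac at 38.6% (36.0 to 41.2) and estradiol H3K27ac at 43.5% (40.9 to 46.2), against 51.3% (49.2 to 53.4) and 55.0% (52.9 to 57.1) of kept sites of the estradiol list, but missing sites were weaker, and the order did not hold within the strength classes given below. Among missing sites with estradiol H3K27ac, 490 of 592 (82.8%, 79.5 to 85.7) also had it with the combination, close to the 1040 of 1211 kept sites (85.9%, 83.8 to 87.8), with overlapping intervals. Acetylation was thus listed with the combination at most acetylated sites where the ER peak was not. The antibody targets were sampled at different times, and ER at 8 h was not measured.

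**Figure D4:**
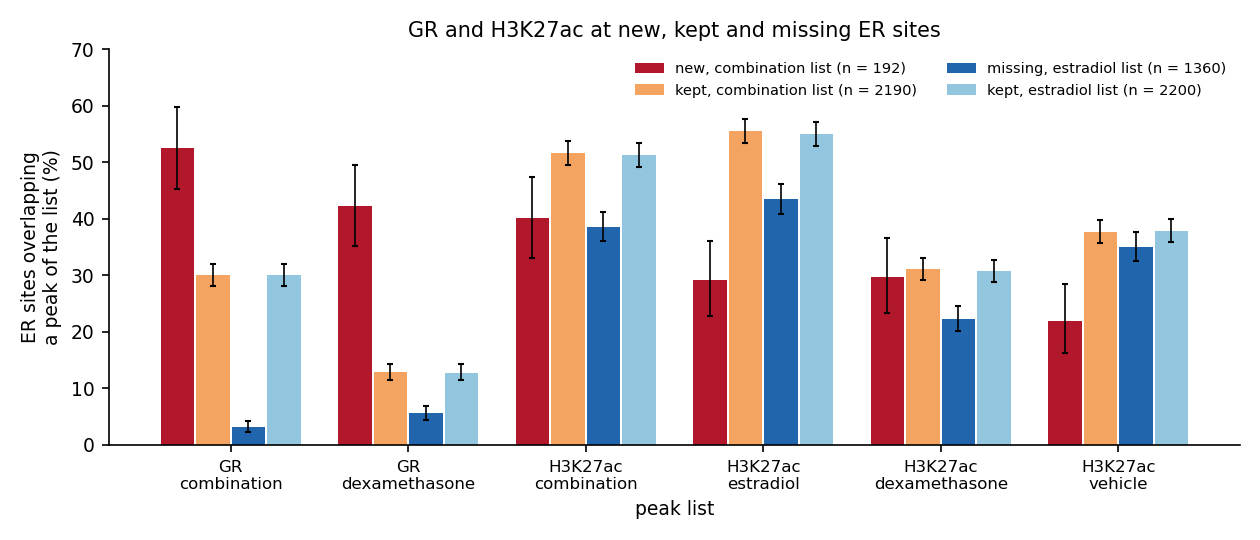
Percentage of ER sites that overlap a GR or H3K27ac peak, by class of site, with exact 95% intervals over peaks. New sites carry GR more often than kept sites (52.6% against 30.0% for combination GR), and missing sites carry it least (3.16%). Among the H3K27ac lists the classes differ most for estradiol H3K27ac, at 29.2% of new and 55.6% of kept sites of the combination list.

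Within classes of strength the shares of missing sites were at or above those of kept sites for combination, estradiol and vehicle H3K27ac, unlike in the whole list. For dexamethasone H3K27ac they were 16.7%, 30.9% and 35.2% of missing sites from weakest to strongest, against 20.3%, 28.2% and 35.6% of kept sites, with overlapping intervals. In the 3 pileup classes of the estradiol list, from weakest to strongest, combination H3K27ac overlapped 31.2%, 48.8% and 64.8% of missing sites, against 30.4%, 42.5% and 63.3% of kept sites. Estradiol H3K27ac overlapped 34.5%, 56.1% and 74.1% of missing sites, against 30.4%, 43.2% and 70.1% of kept sites. Of these 4 lists and 3 classes, the intervals lay apart only in the middle class, for estradiol H3K27ac (51.5 to 60.6 for missing sites and 39.5 to 47.0 for kept sites) and for vehicle H3K27ac. For vehicle H3K27ac the middle-class shares were 48.0% (43.4 to 52.6) of 469 missing sites and 32.9% (29.4 to 36.5) of 699 kept sites. In the weakest class the vehicle shares were 26.2% (23.2 to 29.3) and 22.01% (17.8 to 26.7), and in the strongest class 61.1% (46.9 to 74.1) of only 54 missing sites and 45.9% (43.0 to 48.8) of kept sites. In the stronger 50% of the estradiol list, 83.3% (80.6 to 85.8) of sites with vehicle H3K27ac were kept, against 89.5% (87.5 to 91.4) of sites without it. Fold enrichment also differed within classes: in the fourth of 5 pileup classes, missing sites had a median of 10.8 and kept sites 19.2. Local background enters both the fold enrichment and the peak call, and its part in the result was not tested.

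The ER rank shift differed between matched sites listed for H3K27ac with the combination only and with estradiol only. These 2 lists held 20873 and 23888 peaks from 1 library each, so absence from a list is not a measured change in acetylation. At the 85 matched sites with H3K27ac in the combination list and not in the estradiol list, the median ER shift was 8.05 points, and 59 of them (69.4%) ranked higher with the combination. At the 167 sites with H3K27ac in the estradiol list and not in the combination list, the median was −4.89 points, and 52 (31.1%) ranked higher. Sites with H3K27ac in both lists (1055) or in neither (879) had medians of −0.32 and −1.01 points. More than 25 points were gained at 12 of the 85 sites (14.1%) and at 2 of the 167 (1.20%), against the background of 4.44%. These classes differed in strength too, with median estradiol percentiles of 31.8 for the 85 sites and 57.7 for the 167 sites. The parts of strength and of GR sites in this difference were not tested.

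New and missing sites were narrow. New sites had a median width of 148 bp (quartiles 128 and 186.5), against 201 bp (156 and 256) for kept sites of the combination list. Missing sites had a median width of 119 bp (102 and 142), against 191 bp (154 and 249) for kept sites of the estradiol list. Width follows strength: in the weakest of 5 pileup classes new and kept combination sites had medians of 134 and 142 bp, and in the third class 190 and 191.5 bp. Missing and kept estradiol sites differed more within such classes, in which kept sites may still be the stronger ones, with medians of 108 and 127 bp in the weakest class and 145 and 192 bp in the fourth. The caller's minimum differed, at 121 bp with the combination and 90 bp with estradiol, and 708 missing sites (52.1%, 49.4 to 54.7) were narrower than 121 bp. Of the 868 estradiol sites under that width, 160 (18.4%, 15.9 to 21.2) were kept, against 2040 of 2692 wider ones (75.8%, 74.1 to 77.4), and their median pileups were 15.95 and 28.62. Strength, width and the caller's minimum cannot be told apart for these narrow sites. Matched sites had median widths of 201 bp with the combination and 191 bp with estradiol, and the combination peak was the wider one at 1234 of 2186 (56.5%), with a median difference of 6 bp.

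Summits of matched sites stayed in place. The median distance between the combination and estradiol summits was 12 bp (quartiles 5 and 22), 990 pairs (45.3%) lay within 10 bp and 2076 (94.97%) within 50 bp, and 69 pairs had the same base. Overlap of narrow peaks itself keeps this distance short. The signed median was 0 bp, so there was no shift to one side. The median was 9 bp in the strongest 25% of matched sites by combination pileup and 14 bp in the weakest 25%. Sites on a dexamethasone GR site had a median of 14 bp, and 13 of 283 (4.59%) moved by more than 100 bp. That share was 1.56% (34 of 2186) of all matched sites and 2.57% of the weakest 25%. Of the 430 sites with GR only in the combination list none moved that far, and their median was 10 bp. Among sites on neither GR list 21 of 1473 (1.43%) did so, with a median of 12 bp. The largest shifts among the strongest 25% were 198 bp at chr1:86072825-86073264, 145 bp at chr17:35135608-35136059 and 78 bp at chr16:53133412-53133695. The first 2 peaks were 440 and 452 bp wide with the combination, and the first overlapped both GR lists.

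**Figure D5:**
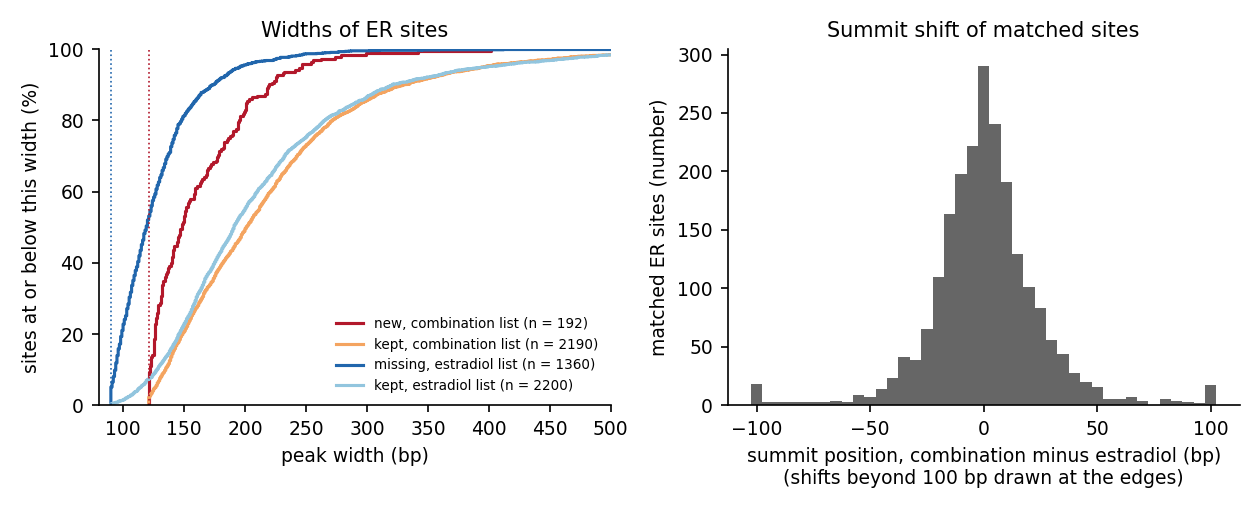
Widths and summit positions. The left panel gives the cumulative percentage of ER sites by peak width in bp for each class, with dotted lines at the minimum widths of 121 bp (combination, red) and 90 bp (estradiol, blue), and the right panel gives the number of matched sites by summit shift in bp. New and missing sites lie to the left of the kept sites of their own list, and the shifts centre on 0 bp.

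The kept share varied between chromosomes, with intervals that left out the share of all sites only on chromosomes 16 and 19. It was lowest on chromosome 19 (59 of 128 estradiol sites, 46.1%, 37.2 to 55.1) and chromosome 16 (65 of 126, 51.6%, 42.5 to 60.6), and highest on chromosome 9 (110 of 162, 67.9%, 60.1 to 75.01) and chromosome 20 (57 of 84, 67.9%, 56.8 to 77.6), against 61.8% in all. On chromosomes 16, 19 and 22 as a group, chosen after their values were seen, 50.6% (45.2 to 56.0) of 346 sites were kept, against 63.0% (61.3 to 64.7) of 3214 sites elsewhere. In the weaker 50% of the list these shares were 22.3% (16.4 to 29.2) and 38.3% (35.9 to 40.7), and in the stronger 50% they were 79.5% (72.7 to 85.3) and 87.5% (85.8 to 89.1). Because the group was picked with its values known, its lower shares are no further support for a difference between chromosomes. New sites ranged from 3.03% of chromosome 16 sites to 15.4% of the 26 sites on the X chromosome, with wide intervals (0.369 to 10.5 and 4.36 to 34.9). Losses of more than 25 points were at 8 of 73 matched sites on chromosome 14 (10.96%, 4.85 to 20.5), 5 of 57 on chromosome 20 (8.77%, 2.91 to 19.3) and 5 of 58 on chromosome 19 (8.62%, 2.86 to 18.98), against 3.11% of all matched sites. These 3 chromosomes were chosen after their values were seen, and the 8 include the 3 chromosome 14 sites named above.

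Over the whole estradiol list, missing sites had a near neighbour less often than kept ones. In its weaker 50%, which held 1123 of the 1360 missing sites, the shares were close. Another estradiol ER site lay within 10 kb of 440 missing sites (32.4%, 29.9 to 34.9) and of 897 kept sites (40.8%, 38.7 to 42.9). Among the weaker 50% of estradiol sites, 31.8% (29.1 to 34.6) of missing and 33.0% (29.4 to 36.8) of kept sites had such a neighbour, and these intervals overlap. In the stronger 50% they were 35.02% (29.0 to 41.46) and 44.0% (41.54 to 46.5), with intervals that lie just apart. In the combination list another ER site lay within 10 kb of 55 new sites (28.6%, 22.4 to 35.6) and 728 kept sites (33.2%, 31.3 to 35.3). A kept estradiol site lay within 10 kb of 327 missing sites (24.0%, 21.8 to 26.4), and another kept one within 10 kb of 711 kept sites (32.3%, 30.4 to 34.3).

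New sites made up a smaller part of the ER list than of the GR list when the second hormone was added. They were 8.06% of combination ER sites (6.998 to 9.227) against estradiol, and 36.9% of combination GR sites (34.5 to 39.3) against dexamethasone. Missing sites were 38.2% (36.6 to 39.8) of estradiol ER sites and 43.2% (40.9 to 45.5) of dexamethasone GR sites. The lists differ in length and depth, which also sets such shares.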

How the data were processed

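The authors' deposited peak lists were used. The submitters' processing notes name Bowtie 1.1.2, MACS2 2.1.0.20140616 and the build hg19. Per the file headers, each ER and GR library was set against 1 control at a p cutoff of 1e-10, keeping at most 1 tag per position, with local background taken over 1000 and 10000 bp and the larger data set scaled to the smaller. The deposited pileup is a signal, the scaled coverage at the summit. The deposited −log10 p-values and −log10 q-values and the fold enrichment, a ratio to local background, are the authors' own. Whether the control is input or IgG is not clear from the labels.

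Overlaps, ranks and shares were computed in Python 3.11.15 with pandas 2.3.3 and scipy 1.17.1, and the overlap code was tested on simulated peaks. Fragments are the pileup divided by the scaling factor from the headers' tag totals, and were whole within 0.05 at every ER site. Matched pairs use each site once, nearest summits first, and a matched pair counts as on GR or H3K27ac when either of its peaks overlaps that list. A 1 bp overlap was required throughout. No p-value was computed, since each condition has 1 library.

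Sites named are the 5 of highest pileup in each class, the 5 largest rank gains and losses, and the 3 largest summit shifts among the strongest 25% of matched sites. The members, lists and classes were chosen with earlier results of these data known. Genes, promoters, motifs and sequences are not reported, for want of an annotation in the build of the peaks. The vehicle ER and GR samples were not analysed here.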

Additional observations from a re-analysis of the deposited data

How the results depend on the processing

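Each comparison has 1 library a side, so no library could be left out. No paired analysis was possible because each condition has 1 library and no result comes from a test. The promoter and motif alternatives were not run, since no hg19 genome or annotation was used. Depth, list length, fragment length and the ceiling on pileup limit what an absent peak shows. Of the alternatives to each main value, 47 moved it beyond its interval over peaks, 1 reversed it and 23 did not. For single named sites and secondary values, 21 were counted as moved and 43 were not. All alternatives for named sites are among the 43, but a single site has no interval over peaks, so that rule could not judge them. The named gains and losses kept their sign and stayed over 25 points in each alternative, but their size changed. The gain at the chromosome 9 site starting at 132318810 went from 56.7 to 38.3 points with whole-list percentiles and to 69.9 by fold enrichment. The cause was not tested for any of these.

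New sites were 9.66% of the combination list with summits required within 100 bp, 19.9% and 22.6% with lists of equal length by −log10 q and by pileup, and 1.76% in its stronger 50% against the whole estradiol list. The kept share of the estradiol list was 65.5% with sites within 1 kb, 80.3% and 77.6% with lists of equal length by −log10 q and by pileup, and 90.1% in its stronger 50%. The order of the matched sites was looser by other measures, with rho of 0.760 by fold enrichment and 0.788 by −log10 q. Gains over 25 points were 9.84%, 8.97% and 1.56% by fold enrichment, by −log10 q and by percentile within each whole list. Losses were 10.3%, 8.55% and 16.6% in the same order of settings. The last setting also ranks unmatched sites, of which the estradiol list held more, and so tilts towards losses.

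The median shift of sites on dexamethasone GR was 8.67 points by −log10 q. In the 3 classes by estradiol rank, an alternative chosen after seeing the data, it was 19.9, 8.14 and 0.915 points from weakest to strongest. Without dexamethasone GR it was −0.389 points by fold enrichment, and it reversed to 1.30 points in the weakest class, with −4.16 in the middle class.

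With GR or H3K27ac counted within 1 kb, combination GR stood at 32.9% of kept sites of the combination list, and at 7.13% of missing and 33.1% of kept sites of the estradiol list. Dexamethasone GR stood at 15.2%, 8.53% and 15.3% of the same classes. Combination H3K27ac stood at 54.7% of new and 64.3% of kept combination sites, and at 52.2% of missing and 64.5% of kept estradiol sites. In the weaker 50% of each list, combination GR stood at 9.41% of kept combination sites and 15.8% of kept estradiol sites, dexamethasone GR at 7.66% and 10.9%, and combination H3K27ac at 38.2% and 33.2%. It stood at 34.8% of missing sites there. Median widths in the weaker 50% were 158 bp for kept combination sites, 115 bp for missing sites and 145 bp for kept estradiol sites. The median summit shift was 9 bp in the strongest 25%. A neighbour within 50 kb stood at 48.4% of new and 51.8% of kept combination sites, and at 52.4% of missing and 60.0% of kept estradiol sites.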
